A study of Solanum lycopersicum with 28 samples.

Results

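Lysine 14 of histone H3 can carry an acetyl group (H3K14ac) or a single methyl group (H3K14me1), and the distributions of these modifications were compared in tomato leaves. The data were 2 peak lists from chromatin immunoprecipitation followed by sequencing (ChIP-seq), in which an antibody recovers the DNA wrapped around histones that carry a given modification. All deposited peaks on the 12 chromosomes were used, which gave 83806 H3K14ac peaks and 192799 H3K14me1 peaks, 276605 of the 3390517 peaks in the 28 lists of the series. Both libraries came from leaves of untreated wild-type plants of the cultivar M82, which were 4 weeks old and kept at 24 °C under 16 h of light, and 10 ng of DNA went into each. The other lists described 24 further histone modifications, RNA polymerase II (RNA Pol II) and the Input, which is chromatin that went through no immunoprecipitation. Each target had 1 library, so that no value below has a replicate and no test speaks of variation between plants. The specificity of the antibodies was not tested. The leaf is a mixture of cell types, and presence in few cells cannot be told apart from low occupancy in many.

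A lysine side chain holds either an acetyl group or methyl groups, so that H3K14ac and H3K14me1 cannot sit on the same H3 molecule at that position. Acetyl groups on histone tails neutralise the charge of lysine and are read by bromodomain proteins, and H3K14ac, placed by histone acetyltransferases of the GNAT and MYST families, is known from promoters of transcribed genes in plants, yeast and animals. H3K9me2 is the methylation by which plants mark silenced transposons, and in Arabidopsis it recruits the DNA methyltransferase CMT3. H3K14me1 has been studied far less, and the study placed it among 6 marks of constitutive heterochromatin, the permanently compact and repeat-rich chromatin. H3K14ac was placed among 19 euchromatin targets. These classes came in part from the same libraries and are not independent of the lists compared here.

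The lists differed in kind as well as in target. H3K14ac was deposited in the narrow format and H3K14me1 in the broad format, in which neighbouring enriched stretches are joined and peak values are averages. H3K14ac peaks had a median width of 524 bp (longest 4400 bp) and a median fold of 2.17 (highest 16.8), where the fold is the ratio of reads piled up at a peak to the local background. H3K14me1 peaks had a median width of 1047 bp (longest 12807 bp) and a median fold of 1.58 (highest 5.85). A q-value under 0.05 was reached by 75666 H3K14ac peaks (90.3%) and by 17 H3K14me1 peaks (0.00882%), against 6200 Input peaks (1.80%). The H3K14me1 list thus consisted almost wholly of weak peaks, the weakest with a p-value of 0.0996, and the weakest H3K14ac peak had 0.0438. H3K14ac peaks covered 55.5 Mb and H3K14me1 peaks 285 Mb of 802 Mb. In bins of 150 bp, called occupied where the centre lay in a peak, these were 6.92% and 35.5% of all bins. Read totals are not in the lists and the depth is unknown. The median background solved from the fold and p-value of each peak was 20.3 reads in the H3K14ac list, 7.39 in the H3K14me1 list and 5.34 in the Input, the second of these being approximate because broad values are averages.

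The first comparison asked how often the lists met. H3K14ac was almost absent from sequence that carried H3K14me1. Of 83806 H3K14ac peaks, 2993 shared at least 1 bp with an H3K14me1 peak, which is 3.57% (95% Wilson interval 3.45% to 3.70%, counting error only), while H3K14me1 held 35.5% of the bins of the genome. In the other direction, 2756 of 192799 H3K14me1 peaks were touched by H3K14ac (1.43%, interval 1.38% to 1.48%), which held 6.92% of the bins. Of the bases of H3K14ac peaks, 1.35% lay in H3K14me1. The shared sequence came to 749 kb in 3024 stretches with a median of 210 bp. The log2 odds ratio of the pair over bins, which is 0 where lists meet as often as their sizes predict, was -5.48, with 5015 bins in both. It was negative on each of the 12 chromosomes, from -5.85 on chromosome 7 to -5.12 on chromosome 6.

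Contacts were mostly partial. Of the 2993 touched H3K14ac peaks, 1650 (55.1%) had under 50% of their length covered and 703 (23.5%) lay wholly inside H3K14me1. The summit, the base of highest pileup, lay in H3K14me1 for 1420 H3K14ac peaks (1.69%). By strength, touched and untouched H3K14ac peaks differed in opposite ways. The median fold of touched peaks was 2.24 (quartiles 1.95 and 2.79), against 2.16 (quartiles 1.81 and 2.87) for untouched peaks, but a q-value under 0.05 was reached by 83.6% of touched and 90.5% of untouched peaks, and the median widths were 480 and 525 bp. When H3K14ac peaks were ranked by fold and divided into 10 groups of equal size, 0.943% of the weakest group were touched, 5.05% of the sixth and 1.78% of the strongest. The weakest group also lay farthest from H3K14me1, with a median distance of 8564 bp against 2066 bp in the eighth, and 63.4% of it lay in the outer 10% at either chromosome end, against 37.8% of the eighth. Of the strongest group, 94.2% touched RNA Pol II and 98.1% touched H3K9ac, a promoter acetylation. The sixth group had the lowest shares, 50.8% and 53.97%, and the weakest group had 58.3% and 75.7%, so that these shares did not rise steadily with fold. Of all bins, RNA Pol II held 9.38% and H3K9ac 9.37%. Input peaks were touched by 22.9% of the weakest and 83.8% of the strongest group, and their part in these shares was not tested.

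The Input and the other modifications give the scale of this avoidance. Input peaks were touched by 46.8% of H3K14ac peaks and 43.8% of H3K14me1 peaks. A contact of 1 bp counted and a wider peak has more length to be touched, so these Input shares cannot be read against shares of bins. Over bins, the log2 odds ratio of the Input was 1.52 with H3K14ac and -0.15 with H3K14me1. H3K14me1 peaks lay with constitutive heterochromatin marks, as 74.7% touched H3K9me2 and 80.8% touched H3K23me1, a monomethylation further along the H3 tail. The H3K23me1 list was about as weak as that of H3K14me1. A q-value under 0.05 was reached by 18 of its 194390 peaks, against 49.2% of H3K9me2 peaks. Of all bins, H3K9me2 held 42.9%, H3K23me1 35.6%, H3K9ac 9.37% and the Input 5.96%. H3K14ac peaks touched H3K9ac in 68.1% of cases and H3K9me2 in 10 cases (0.0119%, interval 0.00648% to 0.0220%). Among the 13 acetylations, H3K14ac had the second lowest odds ratio with H3K14me1. H3K9ac was lower (-5.90), the median of the other 12 was -3.25, and H3K4ac, acetylation of a promoter lysine better known for methylation, was highest (-1.40). In shares of peaks the order was the same at both ends, with 3.03% of H3K9ac, 3.57% of H3K14ac and 30.2% of H3K4ac peaks touched. Among the 13 methylations, H3K14me1 had the second lowest odds ratio with H3K14ac, after H3K9me2 (-15.36). H3K9me2 held the 12 lowest of all 169 pairs of an acetylation with a methylation, from -15.36 to -8.03, and H3K14ac with H3K14me1 came at rank 16. The H3K9me2 list carried no replicate tag in its name, whereas those of H3K14ac and H3K14me1 did. Whether it was made in another way is not stated, and the part of this in its values was not tested.

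Pairs of marks on the same lysine ranged from avoidance to co-occupancy. In 11 pairs an acetylation and a methylation of the same lysine were both measured. H3K9ac with H3K9me2 was the lowest (-14.65), H3K14ac with H3K14me1 was next, and H3K56ac with H3K56me2 followed at -3.67. H3K4ac with H3K4me3, both marks of transcribed promoters, was the highest (4.86). The pairs share libraries and are not independent of each other.

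Distances were then measured, since domains of opposite kind can lie side by side. The median distance from an H3K14ac peak to the nearest H3K14me1 peak was 3376 bp (quartiles 1277 and 9505 bp), and 76.1% lay within 10 kb of one. Input peaks lay nearer to H3K14me1, with a median of 330 bp and 88.7% within 10 kb. The H3K14ac median rested on the weak H3K14me1 peaks, as it was 5600 bp with a p-value under 0.05 and 392597 bp with a fold above 2 in every list. The median distance to H3K9me2 was 14074 bp. From an H3K14me1 peak to the nearest H3K14ac peak the median was 27175 bp (quartiles 6012 and 86584 bp), and 22.0% lay over 100 kb away. The lists held 240 H3K14me1 peaks and 105 H3K14ac peaks per Mb. The other acetylations had medians from 805 bp (H3K4ac) to 5493 bp (H3K9ac), and 11 of the 12 were nearer to H3K14me1 than H3K14ac was.

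Around H3K14ac summits, H3K14me1 rose within a few kb. It was found at 1.69% of the summits, at 5.56% of positions 1 kb away and at 18.8% of positions 5 kb away, and was at 19.4% at 50 kb, still below the 35.5% of the genome. H3K9me2 rose over a longer range, from 0.00239% at the summit and 0.828% at 1 kb to 12.97% at 5 kb and 18.02% at 50 kb. The rise over the first 5 kb was seen in both chromosome zones. For summits in the terminal zone, H3K14me1 rose from 1.17% at the summit to 9.89% at 5 kb, and was at 10.2% at 50 kb, where the zone as a whole held 13.8%. For summits in the remaining, central zone it rose from 2.17% to 26.8% and was at 27.7% at 50 kb, where the zone held 40.9%. Neither reached the level of its zone within 50 kb. The Input went the other way, from 14.2% at the summit to 8.03% at 5 kb. Around the centres of H3K14me1 peaks, H3K14ac was at 0.422%, rose to 1.36% at 1 kb and 3.97% at 5 kb, and was at 4.26% at 50 kb.

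**Figure D1:**
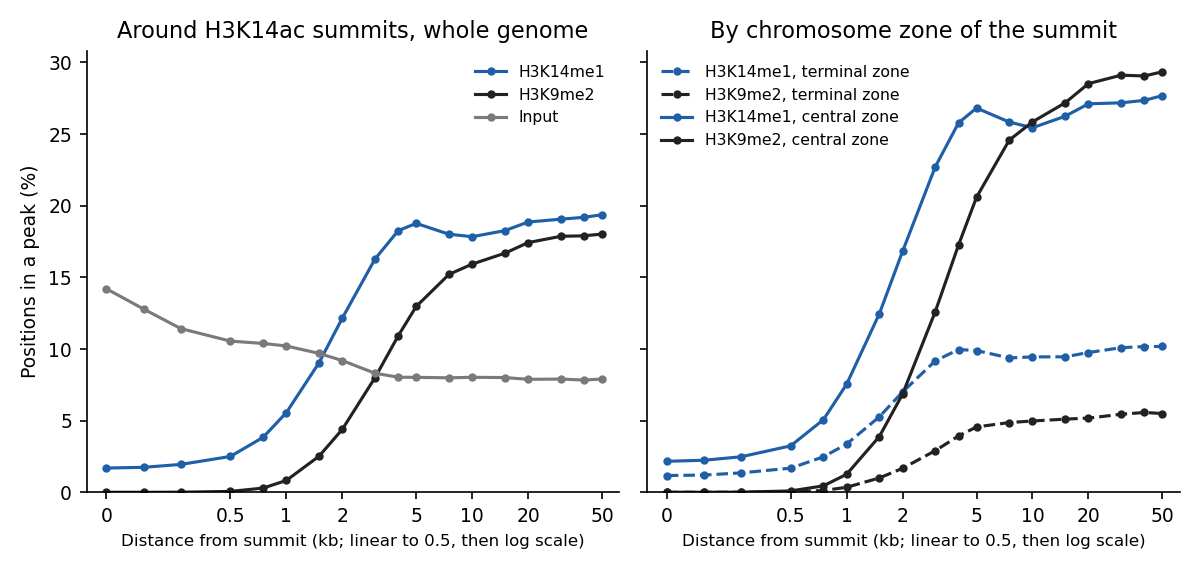
Share of positions (%, vertical axis) that lay in a peak of H3K14me1, H3K9me2 or the Input, by distance from H3K14ac summits (kb, both sides joined). H3K14me1 reached 18.8% at 5 kb, where H3K9me2 was at 12.97%, and the steep part of the H3K14me1 curve lay between 0.5 and 5 kb in the terminal and the central zone (right panel).

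Read from the side of the methylation, most of the long stretches without H3K14me1 held H3K14ac summits. Neighbouring H3K14me1 peaks were separated by 192787 stretches with a median length of 1199 bp and a minimum of 601 bp, as the broad format joins closer peaks. An H3K14ac summit lay in 20155 of them (10.5%), whose median length was 6530 bp against 1081 bp for those without. Stretches longer than 10 kb numbered 7517, of which 6745 (89.7%) held H3K14ac, with a median of 6 summits. They made up 24.8% of the genome and held 67.5% of the H3K14ac summits, although H3K14ac peaks covered only 16.1% to 18.9% of their length in any class and the longest stretch, of 558605 bp, held none. Stretches of up to 2 kb numbered 138233, and 1327 of them (0.960%) held an H3K14ac summit. A longer stretch has more room for a summit, so the density is the fairer measure. It was 4.52 summits per Mb in stretches of up to 1 kb, 86.7 in those between 2 and 5 kb, 245 between 5 and 10 kb, 281 between 10 and 20 kb, 297 between 20 and 50 kb and 271 above 50 kb. H3K9me2 covered 68.5% of the length of the shortest class and 2.496% of the stretches between 20 and 50 kb, in which RNA Pol II covered 33.5%.

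**Figure D2:**
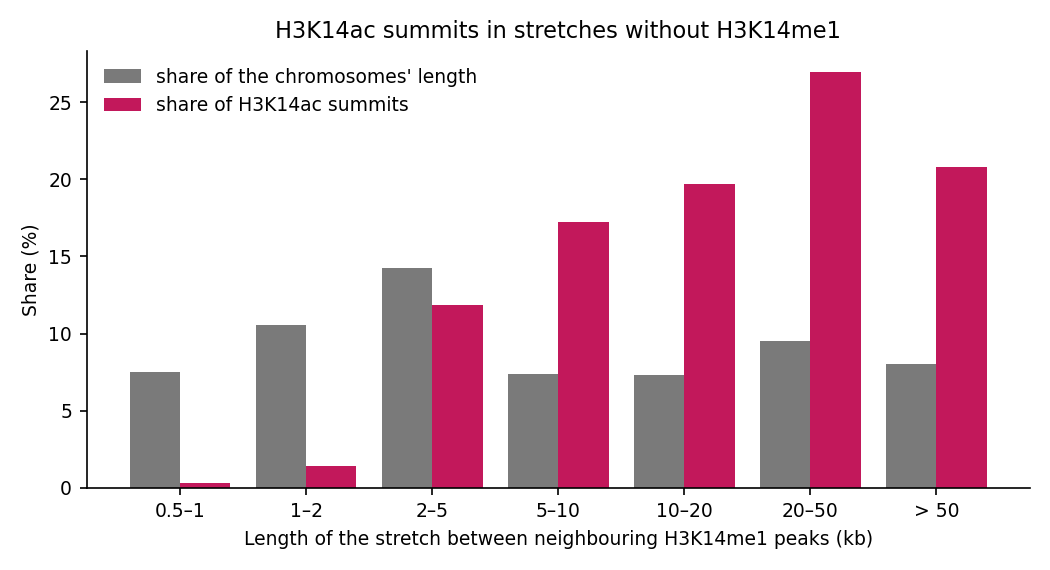
Stretches between neighbouring H3K14me1 peaks by length (kb), with the share of the chromosomes' length (grey bars, %) and of all H3K14ac summits (red bars, %) that each class held. Stretches between 20 and 50 kb made up 9.51% of the length and held 26.98% of the summits, and those of up to 1 kb made up 7.48% and held 0.323%.

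The longest H3K14me1-free stretches that held H3K14ac differed in content. Coordinates are those of version 1 of the M82 genome, counted from 1, and no gene annotation of that build was used here. The longest, chr12:64601764-64880763 (279000 bp), held 3 H3K14ac summits, no RNA Pol II, and Input peaks over 0.0573% of its length, where the genome has 5.96%, so that few reads of any kind gave peaks there. The next, chr6:48567669-48809377 (241709 bp), held 72 summits and RNA Pol II over 15.1% of its length. The last, chr2:50618723-50853917 (235195 bp), held 88 summits, the most of any stretch, with RNA Pol II over 57.7% and no H3K9me2.

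Along the chromosomes the marks ran in opposite directions. In the terminal zone, the outer 10% at each end, H3K14ac occupied 15.4% of the bins, against 4.79% in the central zone, a log2 ratio of 1.69. H3K14me1 occupied 13.8% of the terminal and 40.9% of the central bins, a log2 ratio of -1.57. For scale, the log2 ratio was 2.52 for RNA Pol II, -2.33 for H3K9me2 and 0.55 for the Input. When each chromosome was cut into 20 equal parts, the median H3K14ac occupancy over the 12 chromosomes was 16.7% in the first part, and H3K14me1 was at 10.2%. By the third part these were 5.04% and 41.9%. Toward the other end the change was more gradual. H3K14ac and H3K14me1 were at 17.4% and 7.43% in part 20, 15.6% and 15.5% in part 18, and 8.24% and 37.4% in part 16. Across 796 windows of 1 Mb, H3K14ac and H3K14me1 had a Pearson correlation of -0.917 (Spearman -0.816), and within single chromosomes Pearson's r ran from -0.975 to -0.820. Windows on a chromosome are neighbours from the same libraries and are no replicates. H3K14ac exceeded H3K14me1 in 169 windows (21.2%), which held 54.2% of the H3K14ac bins and 5.20% of the H3K14me1 bins.

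**Figure D3:**
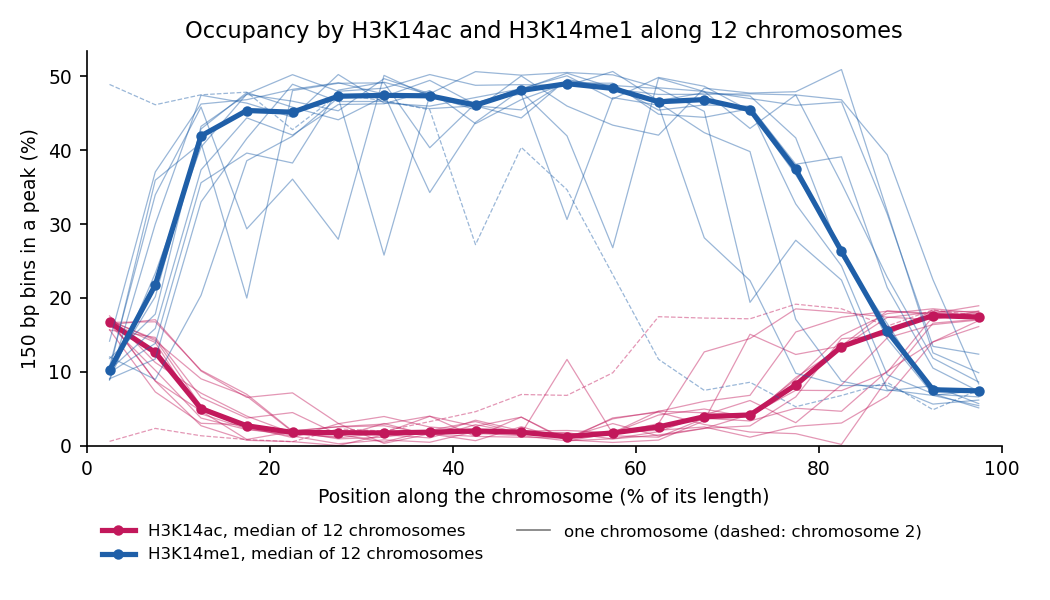
Share of 150 bp bins in a peak (%, vertical axis) by position along the chromosome (% of its length), with 1 thin line per chromosome and the median of 12 as a thick line. H3K14ac (red) stood at 16.7% and H3K14me1 (blue) at 10.2% in the first part of the median chromosome, and the dashed lines show chromosome 2, whose first end had 0.605% H3K14ac.

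Chromosome 2 departed from this arrangement at 1 of its ends. In the first 10% of chromosome 2, H3K14ac occupied 1.48% and H3K14me1 47.5% of the bins. The other 23 chromosome ends ran from 11.5% to 18.4% for H3K14ac and from 5.92% to 25.6% for H3K14me1. H3K14me1 also exceeded H3K14ac at the first ends of chromosomes 1, 6, 7, 8 and 10, by the most on chromosome 1 (25.6% against 11.5%). The zone ratios of chromosome 2 were accordingly near 0, at 0.11 for H3K14ac and -0.07 for H3K14me1, while the other chromosomes ran from 1.17 to 2.45 and from -2.10 to -1.23. The opposite end of chromosome 2 had 18.003% H3K14ac and 6.22% H3K14me1.

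Co-occupancy was also measured with the position along the chromosome held fixed. The log2 odds ratio was -4.28 within the terminal zone and -5.48 within the central zone. Pooled within windows of 1 Mb by the Mantel-Haenszel method, a choice made after the data were seen, it was -4.64, and within windows of 100 kb -4.57. Within windows of 1 Mb, H3K14ac was the lowest of the 13 acetylations with H3K14me1, H3K9ac was next at -4.50, and H3K4ac was again the highest at -0.90. The order of H3K14ac and H3K9ac thus changed, and the difference between them has no test with 1 library each.

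The partners of each mark were compared next, for the 25 other targets. For 22 of them the log2 odds ratio had opposite signs with H3K14ac and with H3K14me1. H3K14ac lay with the other acetylations, with its highest values at 6.14 for H4K16ac, 5.76 for H4K8ac and 5.63 for H4K12ac, followed by H3K18ac at 5.56. The remaining H4 acetylations were lower, at 5.01 for H4K5ac and 4.63 for H4K20ac. H4K16ac, which loosens the packing of nucleosomes, was found in 62.9% of H3K14ac bins. Its lowest values were -15.36 for H3K9me2, -5.20 for H3K56me2 and -5.15 for H3K56me1. H3K14me1 had its highest values with H3K9me2 (2.58), H3K23me1 (2.54) and H3K56me1 (2.32), and 69.9% of its bins lay in H3K9me2. Its lowest were -5.90 with H3K9ac, -5.05 with RNA Pol II and -4.33 with H4K16ac.

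The 3 partners without opposite signs were methylations. H3K27me2, which the study classed with H3K27me3 as facultative heterochromatin, was above 0 with both marks (0.32 with H3K14ac and 0.69 with H3K14me1). The H3K27me2 list was weak as well, and 1060 of its 262219 peaks (0.404%) had a q-value under 0.05. H3K23me3 was at 2.70 with H3K14ac and 0.14 with H3K14me1, and the latter ran from -0.19 to 0.35 over the chromosomes. H3K4me1, which in plants lies over gene bodies, was below 0 with both (-0.28 and -1.40). Its value with H3K14ac ran from -0.82 to 0.17 over the chromosomes, so that the sign was not the same on all. H3K36me3, known from bodies of transcribed genes, stood on the side of H3K14me1 although the study classed it as euchromatin, with -0.50 and 0.82. The H3K36me3 list was broad, and 12592 of its 155523 peaks (8.10%) had a q-value under 0.05. H3K27me3, the Polycomb mark, stood on the side of H3K14ac, with 3.23 and -3.54. Within windows of 1 Mb all 25 partners kept their sign with H3K14ac, and 24 kept it with H3K14me1. The exception was H3K4me1, which moved from -1.40 to 0.13 with H3K14me1 and to -1.73 with H3K14ac. Input peaks had 1.52 with H3K14ac and -0.15 with H3K14me1.

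**Figure D4:**
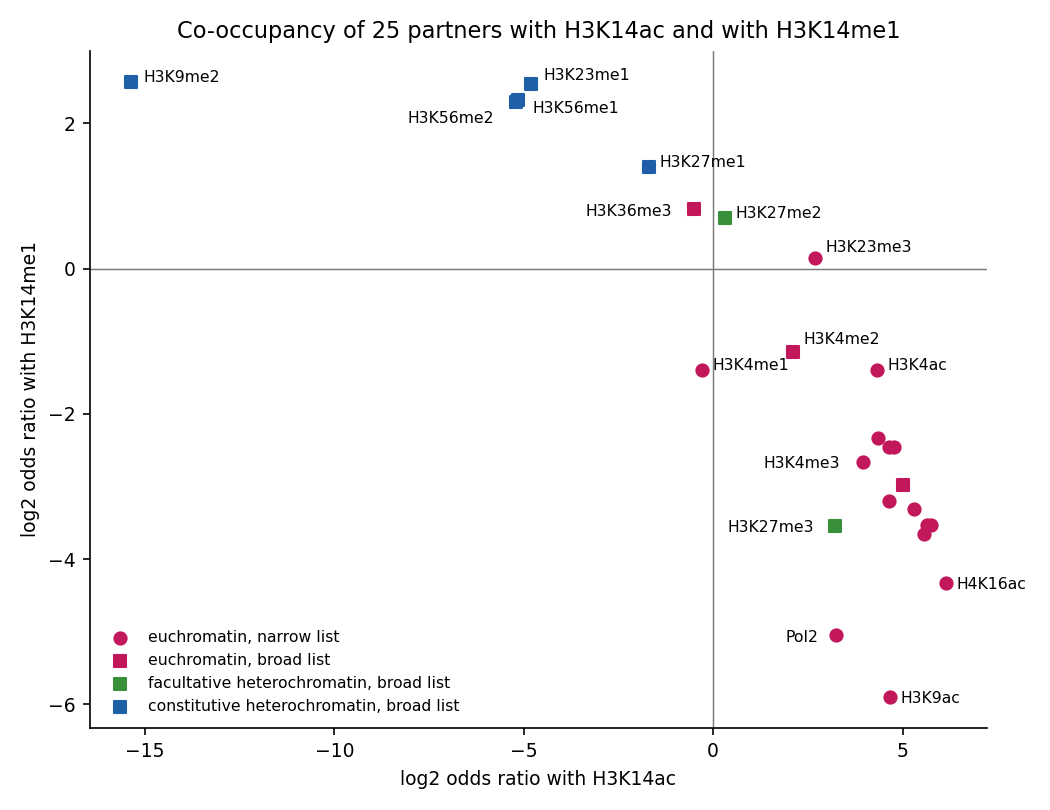
Log2 odds ratio of each of 25 partners with H3K14ac (horizontal) and with H3K14me1 (vertical) over 150 bp bins, coloured by class, with circles for narrow and squares for broad lists. The 5 constitutive heterochromatin lists lie at the upper left (H3K9me2 at -15.36 and 2.58), 16 of the 18 other euchromatin lists lie below 0 on the vertical axis, and all constitutive lists are broad.

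Classes were compared through the difference between the log2 odds ratio with H3K14ac and that with H3K14me1. Over the 18 other euchromatin targets the means were 4.00 ± 1.91 (SD) with H3K14ac and -2.69 ± 1.68 with H3K14me1, a mean difference of 6.69. Over the 5 other constitutive heterochromatin targets they were -6.44 ± 5.20 and 2.23 ± 0.48, a mean difference of -8.67. The contrast between classes was 15.4 (two-sided exact permutation test over the class names of the partner lists, p = 5.94e-05, the smallest that 33649 splits allow). The classes were drawn in part from these libraries and the partner lists overlap each other, so that this p-value is no independent evidence and the contrast is a description. All 5 constitutive lists were broad, whereas 3 of the 18 euchromatin lists were, and among broad lists alone the contrast was 11.98. Without H3K9me2 it was 13.04, and among lists with a replicate tag alone it was 13.6. Apart from H3K9me2, the constitutive lists were about as weak as that of H3K14me1. A q-value under 0.05 was reached by 18 H3K23me1, 24 H3K27me1, 10 H3K56me1 and 42 H3K56me2 peaks.

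Bins that carried both marks were examined last. They numbered 5015 (0.0938% of all bins) and signals from different histones, cells or chromosome copies cannot be told apart in them. Other acetylations were common in these bins. A median of 8 of the 12 other acetylations lay in such a bin, against 6 in bins with H3K14ac alone and 0 with H3K14me1 alone. H3K18ac was found in 78.3% of them, H3K27ac in 78.0% and H4K5ac in 75.1%, against 69.0%, 48.8% and 61.2% of bins with H3K14ac alone. H3K9ac was lower than with H3K14ac alone, at 22.4% against 60.7%, as was RNA Pol II, at 18.5% against 41.8%. The promoter marks H3K4me3 (40.3% against 32.0%) and H3K4ac (44.5% against 35.4%) were higher. The methylations H3K4me2 (66.7% against 29.9%), H3K4me1 (40.4% against 8.71%) and H3K27me2 (70.1% against 42.6%) were higher. Of all bins, H3K27me2 held 38.0%.

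Constitutive heterochromatin marks were divided in these bins. H3K27me1 was at 51.7%, close to the 52.9% of bins with H3K14me1 alone, and H3K23me1 was at 36.7% against 61.4%. H3K56me1 was at 21.5% against 58.1% and H3K56me2 at 12.004% against 55.4%. In bins with H3K14ac alone these marks were, in the same order, at 16.3%, 1.69%, 1.35% and 1.29%. Of all bins they held 38.0%, 35.6%, 34.6% and 32.6%, so that H3K23me1 was near its share of all bins. H3K9me2 was found in 0.0598% of the bins with both marks, against 70.1% of bins with H3K14me1 alone and 42.9% of all bins. No bin with both marks held all 5 other constitutive marks, which 10.9% of bins with H3K14me1 alone did. Input peaks held 21.6% of the bins with both marks, 13.8% of those with H3K14ac alone and 5.54% of those with H3K14me1 alone, and the part of the Input in these shares was not tested.

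**Figure D5:**
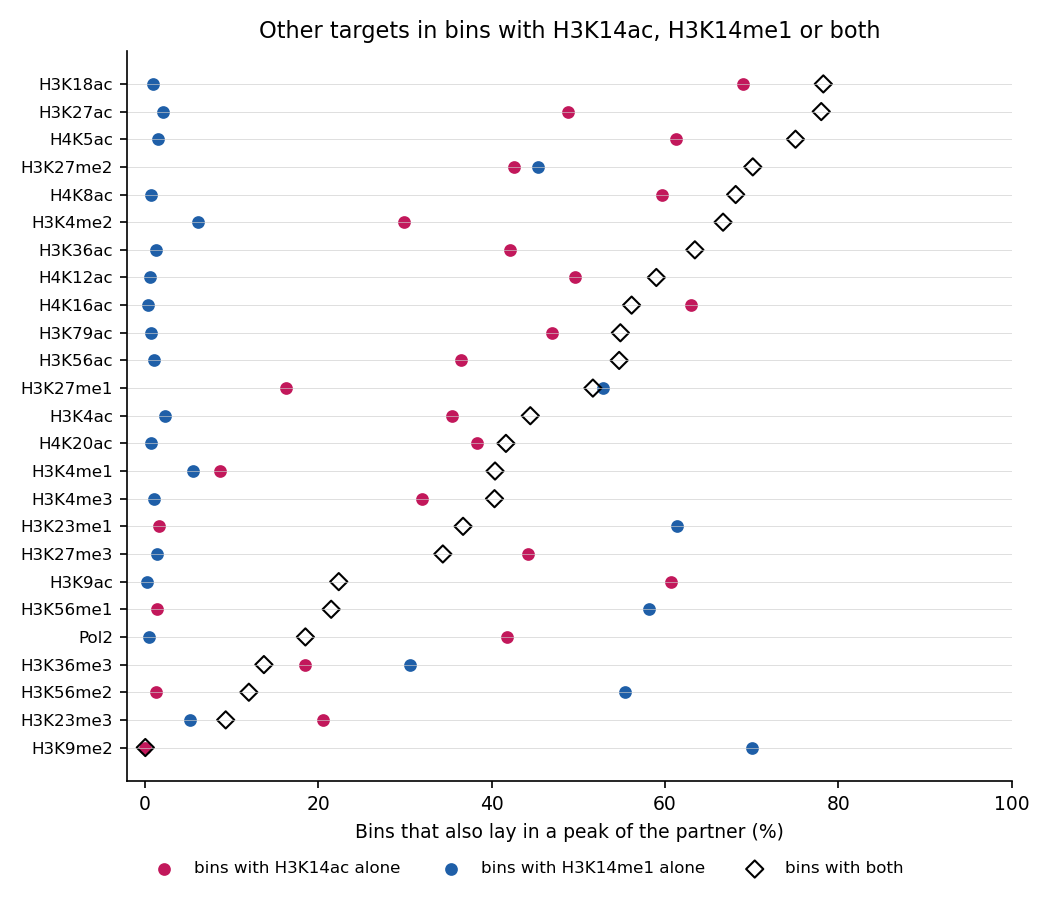
Share of bins (%, horizontal axis) that also lay in a peak of each of 25 other targets, for bins with H3K14ac alone (red), H3K14me1 alone (blue) and both (open diamonds), sorted by the last. H3K18ac was at 78.3% and H3K9me2 at 0.0598% of the 5015 bins with both.

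The longest stretches covered by both marks lay about 9% of the chromosome length from an end. They were chr10:60140916-60143317 (2402 bp), chr3:60851404-60853581 (2178 bp) and chr3:60516338-60518061 (1724 bp). H3K27me2, which held 38.0% of all bins, covered 94.7%, 100% and 94.9% of them and H3K9me2 none. RNA Pol II covered 27.98% of the stretch on chromosome 10 and neither of the others. Input peaks covered 58.3%, 85.0% and 15.9%, compared with 5.96% of the genome.

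The strongest peaks of the lists were unlike each other. The H3K14ac peaks of highest fold were chr2:24969092-24970558 (fold 16.8), chr9:9747837-9748722 (fold 16.1) and chr11:9820089-9820850 (fold 15.9). RNA Pol II covered 83.6%, 53.6% and 100% of them. H3K9ac covered 62.4%, 95.5% and 100%, and none held H3K9me2. An H3K14me1 peak began 1 bp from the peak on chromosome 9, which also had the lowest q-value of the list (-log10 q 177), and the others lay 494 and 831 bp from H3K14me1. The longest H3K14ac peaks, from 4224 to 4400 bp on chromosomes 10, 8 and 5, had folds of 3.05 to 3.34. They lay in H3K27me2, which held 38.0% of all bins, over 67.6% to 100% of their length, with RNA Pol II over 9.76% at most. H3K9ac covered 94.5% of the peak on chromosome 10, 60.3% of that on chromosome 8 and 9.52% of that on chromosome 5.

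Among H3K14me1 peaks the highest folds were those of chr8:66728337-66728581 (fold 5.85, with the lowest q-value, -log10 q 21.0), chr9:64235833-64236060 (fold 3.54) and chr12:70390403-70392821 (fold 3.41). H3K9me2 covered 100% of each, and Input peaks covered 49.4%, 35.1% and 55.3%. The longest H3K14me1 peaks measured 12807 bp (chr12:6019443-6032249), 12201 bp (chr12:22547048-22559248) and 11789 bp (chr1:23116903-23128691), with folds of 1.51 to 1.60, and H3K9me2 covered 81.1% to 99.4% of them. The first of these ended or began 362 bp from an H3K14ac peak, and the others lay 155731 and 45336 bp from one.

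The few H3K14me1 peaks with a q-value under 0.05 often lay at the tips of chromosomes. All 17 touched H3K9me2, none touched H3K14ac and 13 touched the Input, where 74.7%, 1.43% and 43.8% of all H3K14me1 peaks did. The 17 peaks lay on 7 chromosomes, and 8 of them were within 10 kb of the end of a chromosome, at 6 of the 24 ends. Of all 192799 H3K14me1 peaks, 72 (0.0373%) were so placed. H3K14me1 peaks of any strength lay within 10 kb of 23 of the 24 ends, and H3K14ac peaks within 10 kb of 8. The far end of a chromosome was set at the last base that any list covered. With so few peaks, and with Input peaks in most of them, this is a description of the list.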

How the data were processed

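The study trimmed reads with Trimmomatic 0.38, aligned them to version 1 of the M82 genome with Bowtie2 2.3.5, discarded duplicates and poorly placed alignments with SAMtools 1.9, and called peaks with MACS2 2.2.7.1 at a p-value of 0.05. Reads that repeats place poorly are thus lost, which could thin peaks in repeat-rich sequence. The H3K14me1 list nevertheless held peaks with p-values up to 0.0996, and 148416 of its 192799 peaks had a p-value under 0.05. How peaks above that limit came into the broad list is not stated. The use of the Input as control and any pooling of replicates are not stated in the sources. Per the labels, each list is replicate 1 of its target. The names of the RNA Pol II, H3K4me1, H3K9ac, H3K36me3, H3K9me2 and Input lists carried no replicate tag, and the reason is not stated. The deposited columns give the fold enrichment (a ratio of pileup to local background), −log10 p-values and −log10 q-values of each peak, which the authors took from MACS2 and which in broad lists are averages.

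All peaks on the 12 chromosomes entered, without a further threshold. Overlap, distance and occupancy of 150 bp bins were computed with Python 3.11.15, NumPy 2.4.6, pandas 2.3.3 and SciPy 1.17.1, and tested on simulated peaks. Log2 odds ratios had 0.5 added to each cell. Each chromosome was taken to end at the last base covered by any list. Pileups were solved from fold and p-value, and were whole numbers to within 0.02 for 100% of H3K14ac peaks. Named regions were, for each mark, the 3 peaks of highest fold, the 3 longest and that of lowest q-value, the 3 longest stretches with both marks and the 3 longest H3K14me1-free stretches with H3K14ac, and the named partners were the 3 highest and 3 lowest of each mark, with further partners chosen after their values were seen. The partner classes are those of the study. The marks, lists and comparisons were chosen with earlier results of these data known. Alternatives were fold limits of 1.5 and 2, q- and p-value limits of 0.05, other bins and zones, distance from Input peaks and subsets of partners. Peaks on organellar and unplaced sequences entered no comparison.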

Additional observations from a re-analysis of the deposited data

Results flagged for a closer look

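Peaks outside the 12 chromosomes entered no comparison, and H3K14me1 covered more there than the Input did on each kind of sequence. On the chloroplast sequence H3K14me1 peaks covered 58.5%, against 36.01% for Input peaks and 25.9% for H3K14ac peaks. On the mitochondrial sequence H3K14me1 covered 35.5% and the Input 32.3%, and no H3K14ac peak was listed. On 238 unplaced sequences H3K14me1 covered 10.997% in 388 peaks, 77 of them with a q-value under 0.05, whereas the Input covered 1.04% and H3K14ac had 1 peak. H3K14me1 peaks are in the broad format and Input peaks in the narrow format, and the part of this in the covered lengths was not tested.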

How the results depend on the processing

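No paired analysis was possible because each target had 1 library, and for the same reason no library could be left out of a group. The log2 odds ratio of H3K14ac with H3K14me1 stayed below 0 under all 8 alternative settings and both added ones. With a fold above 1.5, a fold above 2, a q-value under 0.05 and a p-value under 0.05 in every list it was -5.49, -3.15, -4.37 and -5.94. The value for q rests on 17 H3K14me1 peaks and 0 shared bins, so that it is set by the 0.5 added to each cell. It was -6.27 over 1 kb from Input peaks, -4.28 in the terminal zone, and, added after the data were seen, -4.64 within windows of 1 Mb and -4.57 within windows of 100 kb. The share of H3K14ac peaks touched was 2.81%, 0.0159%, 0% and 2.09% under the same 4 limits, 1.60% with 50% of the peak covered, 2.19% over 1 kb from Input peaks, 2.36% in the terminal and 4.67% in the central zone. The share of H3K14me1 peaks touched was 0.586% at a fold above 2, 0% at the q limit, 1.07% at the p limit, 0.378% with 50% covered, 0.269% over 1 kb from Input peaks, 4.82% in the terminal and 1.09% in the central zone. The limits of fold and q remove nearly all H3K14me1 peaks, to 1194 and 17.

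The median distance from H3K14ac to H3K14me1 was 4144, 392597, 14995100 and 5600 bp under the 4 limits, and that from H3K14me1 to H3K14ac was 24621.5, 18320, 13228 and 29451 bp. At the q limit the first covers the 7 chromosomes that kept an H3K14me1 peak. The zone ratio of H3K14ac was 1.67, 1.43 and 1.68 at the fold and q limits and 1.78 with the outer 20% at each end. That of H3K14me1 was -1.52 and -0.44 at the fold limits, 5.62 at the q limit, where the 17 peaks left reversed its direction, -1.72 at the p limit and -0.93 with the outer 20%. The partner contrast ran from 11.9 to 23.6 over its alternatives, against 15.4. Its p-value was the smallest possible under each, on classes drawn in part from these libraries, and says nothing about stability. The depth of the H3K14me1 library is unknown, and its weak peaks limit every value here.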

Other observations

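Peak width went with different partners in the lists. When H3K14me1 peaks were ranked by width and divided into 10 groups of equal size, 56.9% of the narrowest group touched H3K9me2 and 17.3% touched the Input, and of the widest 93.8% and 79.9% did. A wider peak has more length to be touched, and the part of width itself was not tested. RNA Pol II was touched by 2.05% of the narrowest and 1.45% of the widest group. H3K14ac peaks were touched by H3K14me1 most often in the widest group (5.29%) and least often in the seventh (2.48%), and the widest group was the least terminal, with 33.9% in the outer 10% of a chromosome end against 47.6% of the narrowest.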
